A study of Homo sapiens with 14 samples.

Results

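Wide GLTSCR1 regions are stretches of the genome where chromatin immunoprecipitation sequencing (ChIP-seq) of GLTSCR1 gave 1 unbroken peak region of more than 5 kb. They were chosen on width alone, from the peak list of vehicle-treated cells, on chromosomes 1 to 22, X and Y. In all, 227 of the 18037 GLTSCR1 regions of that list (1.26%) passed. They held 2.12 Mb, or 12.7% of the bases in the list, and 3469 of its 32462 summits (10.7%).

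The cells were HS-SY-II, an established synovial sarcoma line, labelled WT for genotype. Treatment was WA-68 at 100 nM, a PROTAC against BRD9 that marks this protein for degradation, or its vehicle DMSO. Times with WA-68 were 12, 24, 48 and 96 h for the GLTSCR1 libraries. For the HA-tagged SS18::SSX fusion, precipitated with an anti-HA antibody, they were 12, 24 and 48 h. Each antibody also had a DMSO library. Each of these 9 groups was 1 library. The labels do not say how the tag was introduced, whether the cells were 1 clone, or at what time the DMSO cells were harvested. The 5 input libraries were not analysed here.

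GLTSCR1, the product of BICRA, is a defining subunit of GBAF, the form of the BAF chromatin remodelling complex that also contains BRD9. SS18 is a subunit of both canonical BAF and GBAF, and synovial sarcoma is driven by the fusion of SS18 to an SSX protein. In this tumour the fusion is known for spreading over CpG-rich developmental genes that carry Polycomb marks, while GBAF is known from promoters and enhancers. No histone mark, transcript or protein level was measured in the files used here, so a wide region is a width and not an enhancer call.

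Because there was 1 library per group, no difference between conditions could be tested, and no p-value is given. Intervals are exact Clopper-Pearson 95% intervals. They cover counting error only, and neighbouring regions are not independent. Folds are the authors' enrichments of a summit over local background and are used only within their own list. The files hold no read depth, and a missing peak means that the library did not pass the caller's threshold there. All 4 later GLTSCR1 libraries were set against the same DMSO library, and time in culture cannot be told apart from time with WA-68. The GLTSCR1 lists held 13677 to 18037 regions and the fusion lists 24846 to 28619.

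Some wide regions held microRNA genes, and mature sequences are shown because they name the products encoded under this signal. The strongest folds of these regions ran from 5.58 to 40.4, against a median of 12.7 over all wide regions. RefSeq (GRCh38.p14) placed 8 of 1560 microRNA hairpins in 6 of the 227 regions, while 0.858% of protein-coding genes overlapped a wide region. The 13 mature microRNAs of these hairpins had 13 different seeds, so none shared a seed with another. The capitals mark the seed, bases 2 to 8 from the 5′ end.
hsa-miR-199a-5p: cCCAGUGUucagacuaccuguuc
hsa-miR-199a-3p: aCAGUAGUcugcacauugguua
hsa-miR-214-3p: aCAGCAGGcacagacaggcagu
hsa-miR-214-5p: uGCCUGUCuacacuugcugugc
hsa-miR-21-5p: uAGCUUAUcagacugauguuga
hsa-miR-10a-5p: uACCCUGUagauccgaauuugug

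MIR199A2 and MIR214 lie on the minus strand of chromosome 1, inside the span of DNM3 and within DNM3OS, the antisense noncoding transcript that hosts both. The region over them ran from 172134834 to 172189256 (54.4 kb) and had the highest fold of any wide region, 40.4. The MIR199A2 hairpin (172144535 to 172144644) lay 27 bp from a DMSO GLTSCR1 summit of fold 16.2, and all 8 other lists covered it. The MIR214 hairpin (172138798 to 172138907) was 509 bp from a summit of fold 13.6. It was under all 4 later GLTSCR1 lists and under the fusion in DMSO and at 12 h, but not at 24 or 48 h. MIR3120 lies on the opposite strand of the MIR214 hairpin and was called in the same lists. MIR21 (59841266 to 59841337 on chromosome 17, plus strand) sat in a 9.06 kb region overlapping VMP1, a gene of autophagosome formation, with a strongest fold of 22.5. All 4 later GLTSCR1 lists covered the hairpin, and of the 4 fusion lists the 48 h list did. MIR10A (48579838 to 48579947 on chromosome 17) sat in a 10.0 kb HOXB3/HOXB4 region of fold 12.1. MIR4683, MIR1469 and MIR4740 were in regions of strongest fold 5.58, 7.85 and 11.9.

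Promoters are shown for 4 genes whose starts lay in wide regions of high fold: the lncRNA gene DNM3OS, the zinc-finger transcription factor gene ZIC1, the Notch effector gene HES1 and the histone gene H2BC8. They were picked after their values had been seen. Each runs from 250 bases before to 50 bases after the start, 5′ to 3′ on the gene's strand, from RefSeq (GRCh38.p14). The positions are chr1:172144786-172145085 on the minus strand for DNM3OS, chr3:147409115-147409414 on the plus strand for ZIC1, chr3:194135898-194136197 on the plus strand for HES1 and chr6:26216639-26216938 on the minus strand for H2BC8. Capitals mark CCAAT and TATAAA on either strand, which do not overlap one another here.
DNM3OS: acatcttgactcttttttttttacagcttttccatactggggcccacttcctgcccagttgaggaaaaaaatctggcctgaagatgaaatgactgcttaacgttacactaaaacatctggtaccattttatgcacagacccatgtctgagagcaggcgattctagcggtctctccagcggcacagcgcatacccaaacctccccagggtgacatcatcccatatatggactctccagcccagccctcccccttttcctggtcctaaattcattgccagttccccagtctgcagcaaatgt
ZIC1: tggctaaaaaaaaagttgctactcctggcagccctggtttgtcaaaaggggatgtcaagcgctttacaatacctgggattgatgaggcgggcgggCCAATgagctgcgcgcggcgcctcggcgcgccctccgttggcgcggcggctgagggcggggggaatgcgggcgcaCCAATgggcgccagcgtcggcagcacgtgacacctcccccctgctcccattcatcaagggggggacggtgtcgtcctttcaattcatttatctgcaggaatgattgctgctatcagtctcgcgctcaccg
HES1: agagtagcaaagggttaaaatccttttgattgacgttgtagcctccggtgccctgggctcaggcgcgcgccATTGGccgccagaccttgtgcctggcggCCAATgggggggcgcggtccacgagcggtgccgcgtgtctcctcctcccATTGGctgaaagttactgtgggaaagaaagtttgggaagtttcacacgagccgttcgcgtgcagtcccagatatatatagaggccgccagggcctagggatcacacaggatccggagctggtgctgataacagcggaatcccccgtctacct
H2BC8: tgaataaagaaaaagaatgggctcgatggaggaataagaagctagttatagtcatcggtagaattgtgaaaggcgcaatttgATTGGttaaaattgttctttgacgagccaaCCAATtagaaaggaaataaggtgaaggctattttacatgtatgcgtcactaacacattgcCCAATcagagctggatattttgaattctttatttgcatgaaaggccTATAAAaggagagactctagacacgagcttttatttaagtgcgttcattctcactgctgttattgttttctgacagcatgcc

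The nearest DMSO GLTSCR1 summits were 218 bp (fold 16.2), 185 bp (fold 12.7), 203 bp (fold 11.3) and 93 bp (fold 9.67) from these 4 starts, in the order shown. The ZIC1 window held 26 CpG dinucleotides and 2 CCAAT boxes, the HES1 window 21 CpG and 3 CCAAT, the H2BC8 window 7 CpG, 3 CCAAT and 1 TATAAA, and the DNM3OS window 5 CpG and neither motif. Over all protein-coding promoter windows of this length in the table, CCAAT was found in 86 of 146 (58.9%) in wide regions, against 34.7% of all 21987. TATAAA was found in 42 of 146 (28.8%), against 9.51% of all. The replication-dependent histone genes gave much of this. Of their 45 windows 41 held CCAAT and 31 held TATAAA, while in the other 101 windows in wide regions CCAAT was in 44.6% (95% interval 34.7 to 54.8) and TATAAA in 10.9% (5.56 to 18.7). The AP-1 sequence TGANTCA was in 5 of the 146 windows (3.42%) and in 6.16% of all windows. Median GC content was 57.8% in wide regions, 42.3% for their histone windows, 63.0% for the rest of them and 62.3% over all windows. In the 3302 windows in other GLTSCR1 regions, CCAAT was in 29.9%, TATAAA in 5.75% and TGANTCA in 4.18%, and median GC content was 66.0%.

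The widths ran from 5013 to 81673 bp with a median of 6733 bp, against a median of 560 bp in the other 17810 regions. Of the 227 regions, 74 were at most 6 kb wide, 49 were over 10 kb and 13 over 20 kb. The limit of 5 kb fell within a continuous run of widths. Just inside were regions at PDGFA (5013 bp, fold 14.1), ZNF516 (5035 bp, 8.86) and BCAS3 (5057 bp, 8.24). Just outside were regions at MEIS2 (4986 bp, fold 8.54) and the histone genes H1-4 and H2BC5 (4953 bp, 19.5).

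A wide region was a chain of summits rather than 1 broad summit. Each held 4 to 140 summits, with a median of 12, at a median density of 1.64 per kb. Neighbouring summits were a median of 548 bp apart (quartiles 420 and 735 bp), and the widest gap was 2225 bp. Of the other regions, 66.4% had a single summit and none had more than 11. The strongest summit of a wide region had a median fold of 12.7 (range 5.25 to 40.4), against 4.92 in the other regions. Within a region the strongest summit was a median of 3.48 times the weakest. It lay in the central part of the width, from 25% to 75% along it, in 143 regions (63.0%). Of the 100 highest folds of the DMSO list, 37 belonged to wide regions. Width and fold come from the same peak calls, so these values describe the choice and support nothing further.

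**Figure D1:**
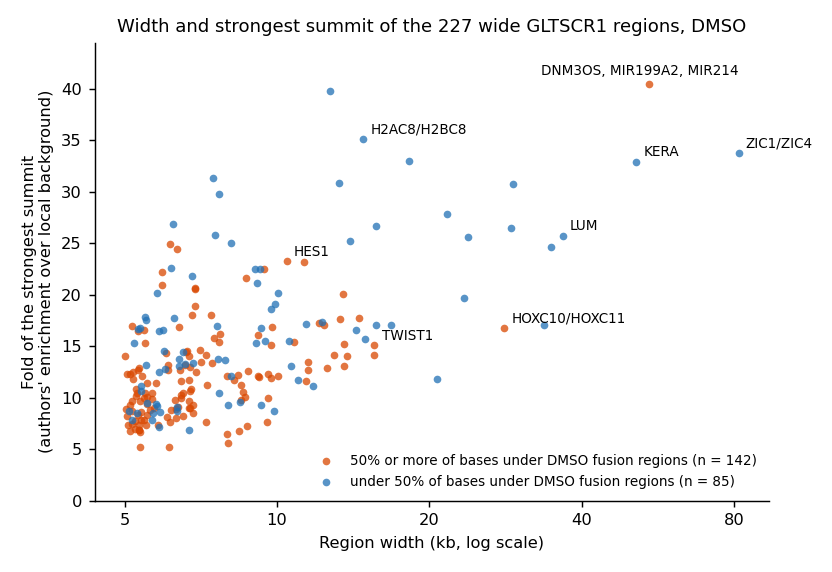
Each point is 1 of the 227 wide GLTSCR1 regions, with its width (kb, log scale) on the x axis and the fold of its strongest summit in the DMSO list on the y axis. Orange points have 50% or more of their bases under DMSO fusion regions (142) and blue points less (85). The ZIC1/ZIC4 region is the widest (81.7 kb), the DNM3OS region has the highest fold (40.4), and 28 of the 49 regions over 10 kb are blue.

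The widest region lay on chromosome 3 from 147346960 to 147428632 and spanned ZIC4 and ZIC1, which encode zinc-finger transcription factors of neural development. It had 140 summits with folds between 4.07 and 33.7 and a median of 10.7. GLTSCR1 covered 96.6%, 99.3%, 94.4% and 98.2% of its bases at 12, 24, 48 and 96 h. The fusion covered 40.9% in DMSO and 17.4%, 9.25% and 10.3% at 12, 24 and 48 h. The later GLTSCR1 lists thus held nearly the whole stretch, in 3 to 10 pieces, while the fusion was called as 29 pieces in DMSO and 9 to 23 later.

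The next widest was the DNM3OS region described above, where GLTSCR1 covered 98.0%, 100.0%, 98.2% and 97.8% at the 4 later times and the fusion 56.1% in DMSO and 22.9%, 6.29% and 9.44% later. Another region of more than 50 kb spanned KERA, the keratocan gene, on chromosome 12 (91029135 to 91080443, 51.3 kb, 91 summits, fold 32.9). Its GLTSCR1 cover was 99.2%, 100.0%, 98.0% and 99%, in a single piece at each time. Its fusion cover was 29.0% in DMSO and 6.88% and 0.756% at 12 and 48 h. At 24 h no fusion region touched it.

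Most wide regions were covered at each later time, where covered means that at least 50% of a region's bases lay under regions of the other list. At 12 h GLTSCR1 covered 178 of 227 (78.4%, 95% interval 72.5 to 83.6), against 40.4% of all DMSO GLTSCR1 regions. At 24 h it covered 176 (77.5%, 71.5 to 82.8), against 32.8% of all. At 48 h the count was 174 (76.7%, 70.6 to 82.0), against 26.2%. At 96 h it was 172 (75.8%, 69.7 to 81.2), against 32.9%. The share changed by under 3 points over these times in the wide regions. The 4 intervals overlap one another and all lie above the shares over all regions.

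The fusion covered fewer wide regions, and fewest at 24 h. The regions were chosen on their width in a GLTSCR1 list, so more cover by GLTSCR1 than by the fusion follows in part from the choice. In DMSO it covered 142 (62.6%, 95% interval 55.9 to 68.9), against 49.8% of all GLTSCR1 regions. At 12 h it covered 125 (55.1%, 48.3 to 61.7), against 45.0%. At 24 h it covered 99 (43.6%, 37.1 to 50.3), against 40.4%. At 48 h it covered 108 (47.6%, 40.9 to 54.3), against 44.0%. At 24 and 48 h the interval holds the share over all regions. By bases, the fusion held 35.7% and 40.1% of the wide regions at these times, against 43.8% and 47.8% of the other regions. The median cover of a wide region by the fusion was 74.3% in DMSO and 56.9%, 34.6% and 47.7% at 12, 24 and 48 h, while the medians for GLTSCR1 were 74.5%, 73.4%, 73.0% and 68.0% from 12 to 96 h.

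**Figure D2:**
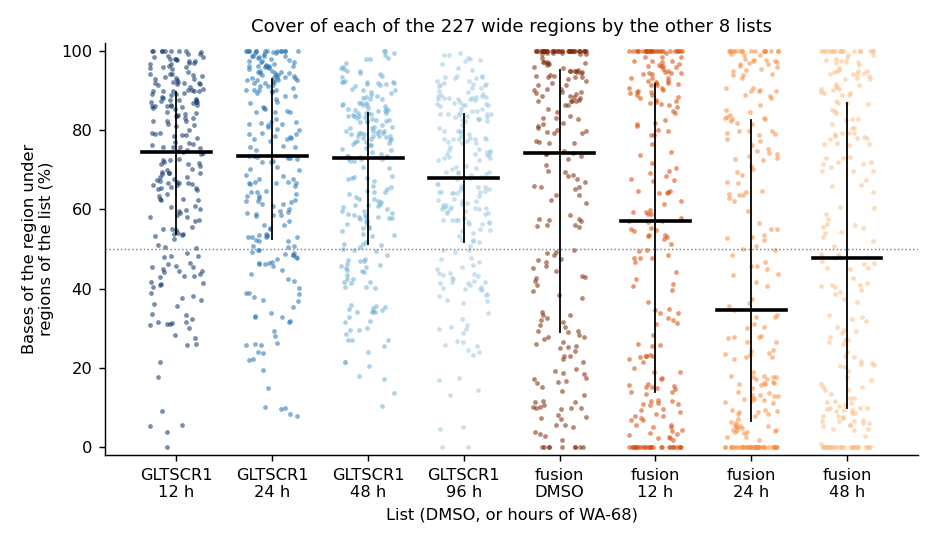
Each point is 1 of the 227 wide regions, and the y axis gives the percent of its bases under regions of the list named on the x axis. Black bars are medians, thin lines run from the lower to the upper quartile, and the dotted line marks 50%. GLTSCR1 points lie mostly between 50% and 100% at every time, while fusion points pile up near both 0% and 100%.

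Within the same fold classes, wide regions were mostly covered more often than others by GLTSCR1, most clearly in the class from 5 to 10. The classes are broad, and folds of wide and other regions may differ within a class, so fold was not matched. Of wide regions whose strongest summit had a fold of 5 to 10, 61.2%, 65.7%, 61.2% and 62.7% of 67 were covered by GLTSCR1 at 12, 24, 48 and 96 h, against 45.7%, 34.8%, 26.8% and 35.3% of 7712 other regions in that class. In the class from 10 to 15, the shares were 72.7%, 68.8%, 72.7% and 66.2% of 77 wide regions, against 74.5%, 61.9%, 45.4% and 60.2% of 729 others. At 12 h, then, wide regions of this class were not covered more often than others. At folds of 20 and over they were 100.0%, 94.7%, 97.4% and 97.4% of 38 wide regions and 92.5%, 76.1%, 74.6% and 88.1% of 67 others.

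The fusion showed the same excess in the 2 lower fold classes and none at folds of 20 and over. In the class from 5 to 10 it covered 74.6% of wide regions in DMSO and 68.7%, 55.2% and 61.2% at 12, 24 and 48 h, against 47.7%, 40.7%, 36.4% and 39.99% of others. In the class from 10 to 15 the shares at 24 and 48 h were both 57.1%, against 30.3% and 36.6% of others. In the class from 15 to 20 the shares were 48.9% in DMSO and 42.2%, 24.4% and 31.1% later. Those of others were 48.8%, 29.3%, 30.1% and 31.7%, so an excess was seen there at 12 h alone. At 20 and over the shares were 31.6% in DMSO and 23.7%, 18.4% and 23.7% later, against 44.8%, 23.9%, 25.4% and 25.4% of others. The excess of wide regions in the class from 5 to 10 was thus found with both antibodies. The part that fold within the class has in it was not tested.

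Later GLTSCR1 regions were mostly shorter than the DMSO outline. The outlines were chosen for their width in DMSO, so shorter later pieces and lower cover at the edges follow in part from the choice. The later lists were also narrower as a whole, with median widths of 459, 451, 400 and 434 bp at 12, 24, 48 and 96 h, against 568 bp in DMSO, and 8.55 to 11.1 Mb in all, against 16.8 Mb. The later lists held 89, 95, 76 and 68 regions over 5 kb at 12, 24, 48 and 96 h, and 96.6%, 89.5%, 96.1% and 97.1% of these touched a region that was wide in DMSO. A DMSO wide region was overlapped by a median of 3, 2, 3 and 3 later regions, and the widest overlap had a median of 3.52, 3.48, 2.98 and 2.87 kb. Cover was lower at the edges. In the outer 5% at each side GLTSCR1 covered 37.4%, 44.2%, 31.7% and 33.6% on average, against 77.6%, 76.7%, 76.0% and 74.0% in the central part, from 25% to 75% of the width. The fusion showed a smaller step, with 45.2%, 42.8%, 34.0% and 37.3% at the edges and 66.9%, 55.8%, 47.4% and 51.8% in the central part in DMSO and at 12, 24 and 48 h. The fusion had its own wide regions, mostly elsewhere: 1172 in DMSO and 1205, 799 and 965 later, of which 7.42%, 6.31%, 5.88% and 5.91% touched a wide GLTSCR1 region.

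**Figure D3:**
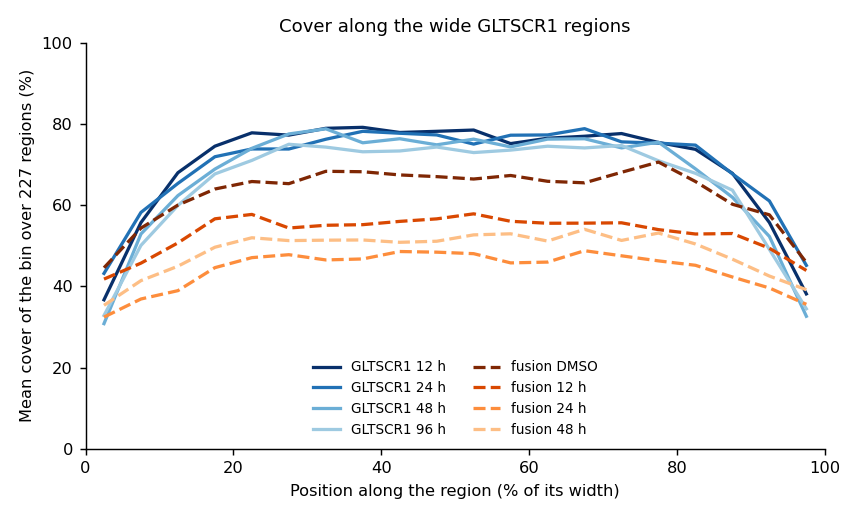
The x axis runs along a wide region from its lower to its upper coordinate in 20 bins, as percent of width, and the y axis gives the mean percent of each bin covered over the 227 regions. Solid blue lines are the 4 later GLTSCR1 lists and dashed orange lines the 4 fusion lists. The GLTSCR1 lines lie near 75% in the middle and drop to between 30.8% and 45.2% in the outermost bins. The fusion lines are flatter, lower than the GLTSCR1 lines in the central part, and at the edges lie among or above them, with the DMSO fusion line above all 4.

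Over all wide regions together, stronger GLTSCR1 summits were more often under later GLTSCR1 regions and less often under later fusion regions. All 129 summits of fold 20 and over in wide regions lay under GLTSCR1 regions at 12, 24, 48 and 96 h. Of the 714 summits of fold under 5, 47.8%, 56.0%, 51.1% and 46.1% did. Under the fusion, the 129 strongest GLTSCR1 summits were at 62.8% in DMSO and at 27.9%, 12.4% and 16.3% at 12, 24 and 48 h. The 714 weakest were at 56.6% in DMSO and at 57.3%, 44.4% and 49.2% later. The summits of all other GLTSCR1 regions had the same order. Of their 76 summits of fold 20 and over, 72.4% were under the fusion in DMSO and 35.5%, 30.3% and 34.2% later, and of their 16584 summits under fold 5 these shares were 55.6%, 53.0%, 48.3% and 52.0%. The order is therefore not particular to wide regions.

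The decline with GLTSCR1 fold under the later fusion lists was not seen in every set of wide regions. In the 142 regions with 50% or more DMSO fusion cover, 79.8%, 79.3%, 73.9% and 43.8% of summits lay under the 12 h fusion regions as GLTSCR1 fold went up through the classes under 5, 5 to 10, 10 to 20 and 20 and over. In the 85 regions with less, these shares were 10.7%, 10.0%, 13.9% and 22.7%, with the highest share in the strongest class. Under the DMSO fusion regions the shares were 7.73%, 17.5%, 36.7% and 53.6% in the 85 and 80.2%, 88.4%, 90.7% and 90.6% in the 142. At 24 h they were 1.72%, 7.38%, 7.87% and 5.15% in the 85 and 65.1%, 66.5%, 57.7% and 34.4% in the 142. In both sets the share of the strongest class was thus lower at 12 and 24 h than in DMSO. Of the 129 strongest summits, 97 lay in the 85 regions, so the pooled order also reflects where the strongest summits are.

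**Figure D4:**
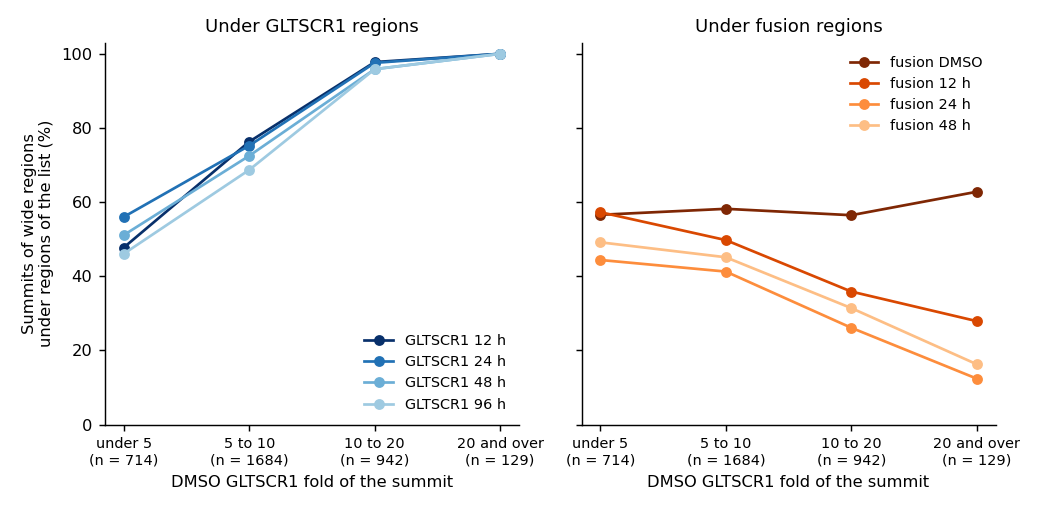
The 3469 DMSO GLTSCR1 summits in wide regions are grouped on the x axis by fold, with the number per class below, and the y axis gives the percent that lie under later GLTSCR1 regions (left) or fusion regions (right). GLTSCR1 lines climb from 46.1 to 56.0% in the lowest class to 100% in the highest. Fusion lines at 12, 24 and 48 h decline with fold to between 12.4% and 27.9%, while the DMSO line ends at 62.8%.

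The wide regions were split into 2 sets at 50% fusion cover in DMSO. This limit fell within a range of values, since 179 regions had at least 25% cover and 112 at least 75%. In 142 at least 50% of the bases were under the fusion, and in 85 less. Of the 85, GLTSCR1 covered 91.8%, 89.4%, 83.5% and 77.6% at 12, 24, 48 and 96 h. Of the 142, it covered 70.4%, 70.4%, 72.5% and 74.6%. By this share the 2 sets were apart at 12 h and close at 96 h. By bases they were still apart at 96 h, with 79.1% under GLTSCR1 in the 85 regions and 66.2% in the 142. Among regions of 5 to 10 kb the 2 sets were close, at 64.8% and 61.9%, and over 10 kb they were at 88.3% and 77.0%. By fold under 10, 10 to 20 and 20 and over, the base shares were 54.1%, 73.0% and 89.9%, against 54.8%, 66.9% and 87.2%. The part of width and fold in the gap was not tested. None of the 85 reached 50% fusion cover at any later time (95% interval up to 4.25% at each). Of the 142 the fusion covered 88.0%, 69.7% and 76.1% at 12, 24 and 48 h. The sets were chosen on DMSO cover by the same antibody, so this difference follows in part from the choice. The 85 were wider (median 7.90 kb, against 6.59 kb) and stronger (median fold 16.6, against 11.8).

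A total of 134 regions (59.0%, 95% interval 52.3 to 65.5) were covered by GLTSCR1 at all 4 later times, against 12.9% of all DMSO GLTSCR1 regions. At none of them were 19 (8.37%), against 40.7% of all. All 4 fusion lists covered 93 (41.0%, 34.5 to 47.7), against 32.1%, and no fusion list covered 85 (37.4%, 31.1 to 44.1), against 40.8%. In 62 regions (27.3%, 21.6 to 33.6) GLTSCR1 covered the region at all 4 later times and no fusion list did, against 3.07% of all regions. The choice on GLTSCR1 width bears on this count too. All 8 lists covered 43 (18.9%, 14.1 to 24.7), against 6.05%. In 15 regions (6.61%) GLTSCR1 cover was 90% or more at each later time, against 2.25% of all.

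The opposite pattern, all 4 fusion lists and no later GLTSCR1 list, was found in 9 regions (3.96%), against 9.93% of all regions. Those named here were picked after their values had been seen. Among the 9 were regions over HOXD3, NKX2-3 and NKX2-2, which encode homeodomain proteins, ZIC5, the T-box gene TBX2, the nuclear receptor gene NR2F2, the growth factor gene GDNF and the cadherin gene CDH4. NR2F2 also overlapped another, wider region (12.5 kb, fold 12.9) that all 8 lists covered, with GLTSCR1 at 82.3%, 66.7%, 79.2% and 62.0%. At NKX2-2 (5.13 kb, fold 12.3) GLTSCR1 covered 5.50%, 7.84%, 34.2% and 41.9% at 12, 24, 48 and 96 h, and the fusion 100.0% in DMSO and 100.0%, 100.0% and 90.8% later. At HOXD3 (9.17 kb, fold 16.1) GLTSCR1 covered 26.0%, 33.9%, 42.4% and 43.9%, and the fusion 100.0%, 90.5%, 89.9% and 82.8%. In both, GLTSCR1 cover was lowest at 12 h and higher at each later time, without reaching 50%.

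The fusion regions in wide GLTSCR1 regions had folds like those elsewhere, with a median of 4.59, against 4.61. Of the 614 DMSO fusion regions that touched a wide GLTSCR1 region, 353 had a fusion fold under 5, and none was among the 100 strongest of the list. Of the 614, 68.7%, 52.1% and 59.8% were overlapped by a fusion region at 12, 24 and 48 h, against 72.4%, 65.0% and 69.0% of the 24339 elsewhere. Among those of fold 7.5 and over the shares were close: 93.8% or more of 65 and of 42 at every time in wide regions, and 98.4% or more elsewhere. Among those of fold under 5 they were 50.4%, 27.5% and 38.0% in wide regions, against 60.6%, 50.4% and 55.8% elsewhere. The gap between the 2 sets thus lay in the weak fusion regions.

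The 227 regions were not spread evenly. Joined across gaps of under 100 kb they made 131 loci, of which 95 held 1 region. The 11 loci with 4 or more held 72 regions and 45.5% of all wide bases. Of these 72 regions GLTSCR1 covered 93.1%, 94.4%, 90.3% and 87.5% at 12, 24, 48 and 96 h, and of the other 155 it covered 71.6%, 69.7%, 70.3% and 70.3%. The fusion covered 34.7% of the 72 in DMSO and 25%, 12.5% and 18.1% later, and 75.5%, 69.0%, 58.1% and 61.3% of the 155. When only the widest region of each locus was counted, GLTSCR1 covered 71.0%, 71.0%, 70.2% and 69.5% of 131 and the fusion covered 74.0% in DMSO and 65.6%, 54.96% and 59.5% later. The higher share for GLTSCR1 than for DMSO fusion over all 227 was thus not found with 1 region per locus. Among the 178 regions of 5 to 10 kb, GLTSCR1 covered 70.8% to 73.0% at the later times and DMSO fusion 68.0%. Whether the higher share goes with locus size or with width was not tested. It was also not found when the limit was set at 3000 bp, when neighbouring DMSO regions were merged, or when 75% of the bases had to be covered.

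**Figure D5:**
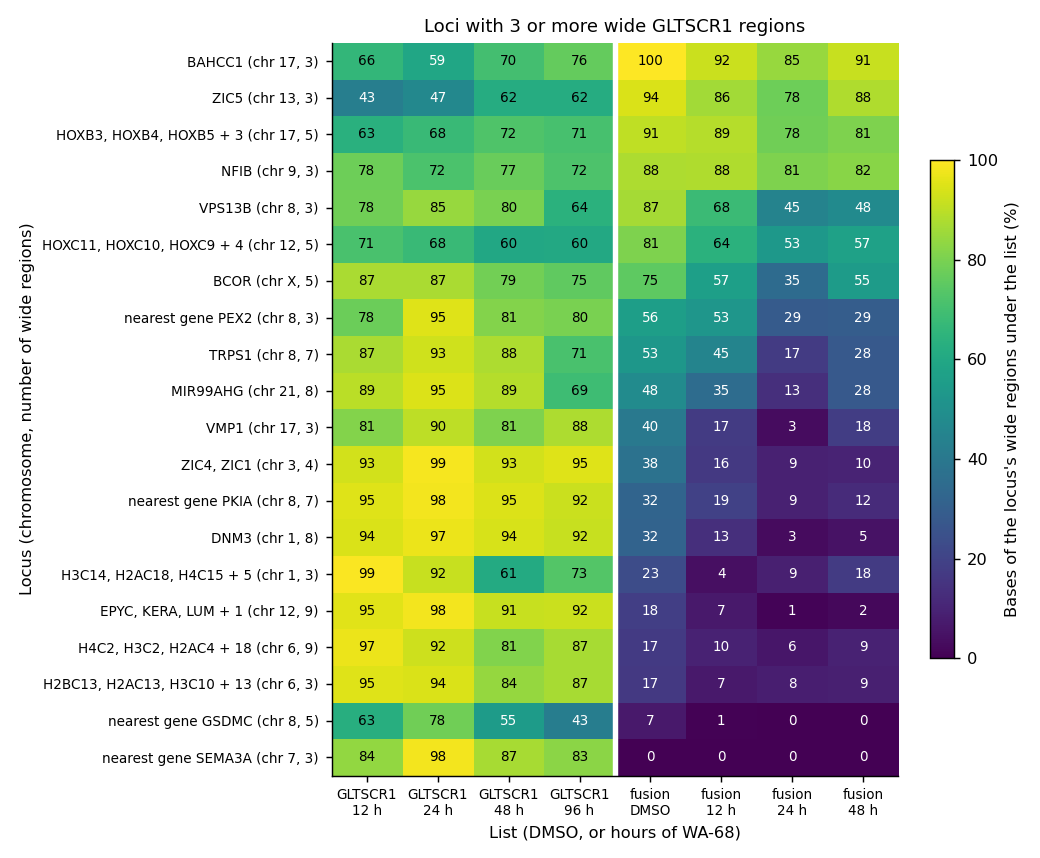
Rows are 20 of the 21 loci with 3 or more wide regions, labelled by the first genes in them or the nearest one, the chromosome and the number of regions, and ordered by DMSO fusion cover. Columns are the 8 lists, and colour and number give the percent of the locus's wide bases under that list. The upper rows, such as BAHCC1, NFIB and the HOXB genes, are covered by the fusion at every time, and the lower rows, such as EPYC to DCN, DNM3 and the histone genes, by GLTSCR1 but little by the fusion.

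The locus with the most wide bases lay on chromosome 12 from 90998197 to 91290873, over EPYC, KERA, LUM and DCN. These 4 neighbouring genes encode epiphycan, keratocan, lumican and decorin, small leucine-rich proteoglycans of the extracellular matrix. It held 9 wide regions with 178 kb and 308 summits. GLTSCR1 covered 95.3%, 98.3%, 91.4% and 91.8% of these bases at 12, 24, 48 and 96 h. The fusion covered 18.4% in DMSO and 6.68%, 1.03% and 1.98% at 12, 24 and 48 h. The LUM region (36.7 kb, fold 25.7) and the DCN region (18.2 kb, fold 33.0) had GLTSCR1 cover between 88.4% and 99.2% at all times. Beyond DCN, a 29.2 kb region 78.8 kb from that gene (fold 30.8) had 1.78% fusion cover in DMSO and none later, with 92.1%, 97.9%, 88.8% and 87.7% GLTSCR1 cover.

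The DNM3 locus on chromosome 1 (172134834 to 172403935) held 8 regions with 144 kb, all within the span of this dynamin gene. GLTSCR1 covered 94.3%, 97.3%, 93.8% and 91.8% of them and the fusion 31.8%, 13.5%, 3.02% and 5.07%. Besides the DNM3OS region it included a 12.7 kb region of fold 39.8, the second-highest fold of all wide regions. The ZIC locus on chromosome 3 held 4 regions with 106 kb, with GLTSCR1 cover of 93.2%, 98.6%, 93.3% and 95.0% and fusion cover of 37.6%, 16.4%, 9.13% and 9.78%. On chromosome 13, by contrast, 3 regions at ZIC5 and ZIC2 had the reverse order, with GLTSCR1 cover of 42.9%, 46.6%, 62.0% and 62.1% and fusion cover of 94.2%, 86.3%, 77.8% and 88.2%.

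Replication-dependent histone genes, which supply the nucleosomes of S phase, were the gene family most often found in wide regions among the 22 families looked up. Of 69 such genes, 47 (68.1%) overlapped a wide region, against 172 of all 20037 protein-coding genes (0.858%). They lay in 16 regions on chromosomes 1 and 6, with 190 kb. GLTSCR1 covered 16, 16, 14 and 15 of them at 12, 24, 48 and 96 h. The fusion covered 1 in DMSO and none later. The exception in DMSO was the region over H3C7 and H2BC9, at 63.6%. The region over H2BC8, H2AC8 and H3C6 (26213105 to 26227909 on chromosome 6, fold 35.1) was covered by GLTSCR1 over 100.0%, 98.5%, 84.3% and 93.6% and by the fusion over 16.4%, 2.47%, 4.94% and 6.65%. The widest, 34.8 kb over H2BC13, H2AC13, H3C10 and their neighbours, had 100.0%, 99.6%, 92.0% and 93.1% for GLTSCR1 and 18.4%, 10.7%, 13.2% and 7.58% for the fusion. The median cover by GLTSCR1 over the 16 was 98.6%, 92.9%, just under 80% and 86.2%, so at 48 h these regions were covered less than at 12 h. Histone genes are near-identical copies, and how the authors' processing placed reads that match several copies is not given in the sources used here.

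HOX genes, which set position along the body axis, showed a different picture. Of 39, 14 (35.9%) overlapped a wide region, in 11 regions with 105 kb. The fusion covered 11, 10, 9 and 9 of these in DMSO and at 12, 24 and 48 h, and GLTSCR1 covered 7, 8, 7 and 8 at 12, 24, 48 and 96 h. The HOXC10/HOXC11 region, 28.1 kb with 42 summits and a fold of 16.8, also contained HOTAIR. GLTSCR1 covered 81.5%, 81.8%, 79.1% and 73.9% of it and the fusion 79.95%, 64.6%, 49.97% and 58.8%. At the 5 HOXB regions, from HOXB3 to HOXB8, GLTSCR1 covered 63.4%, 67.8%, 72.3% and 70.9% of the bases and the fusion 90.6%, 88.9%, 78.2% and 80.5%. Pooled over the 5 HOXC regions, the fusion covered 80.8%, 64.0%, 53.5% and 57.2% of the bases. Single regions of the 2 clusters overlapped, since 1 HOXC9 region had 94.2% fusion cover at 12 h and the HOXB3 region 74.4%.

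Other transcription factor genes were also found. Wide regions overlapped 5 of 117 NK, LIM, paired-like and other homeobox genes, 3 of 52 forkhead genes, 5 of 44 bHLH lineage genes, 2 of 6 GATA genes, 1 of 16 T-box genes, 1 of 9 PAX genes, 1 of 6 IRX genes and 3 of 5 ZIC genes, against the 0.858% of all protein-coding genes given above. For NK, LIM and other homeobox genes the share was 4.27%, for forkhead genes 5.77% and for bHLH genes 11.4%. None of the 19 SOX genes was among them. The 5 homeobox regions, which included those at DLX1, LBX1, NKX2-2 and NKX2-3, were all covered by the fusion in DMSO and by GLTSCR1 in 0, 0, 1 and 2 cases at 12, 24, 48 and 96 h. The 3 forkhead regions, at FOXB1, FOXC1 and FOXP2, were covered in all 8 lists. At FOXB1 (13.5 kb, fold 20.02) GLTSCR1 covered 75.8%, 78.6%, 83.8% and 86.0% and the fusion 99.3%, 93.0%, 82.8% and 94.2%. HES1 (10.4 kb, fold 23.2) was likewise covered in all, with 84.4%, 84.5%, 90.04% and 86.2% for GLTSCR1 and 87.4%, 64.0%, 69.5% and 69.8% for the fusion. TWIST1, a bHLH gene of mesenchymal cells (15.6 kb, fold 15.1), had 72.5%, 58.3%, 47.0% and 62.4% for GLTSCR1 and 65.9%, 59.4%, 26.6% and 40.3% for the fusion.

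Genes of chromatin complexes included BCOR, which encodes part of a Polycomb repressive complex 1 variant, and ARID1A, which encodes a subunit of canonical BAF. In all, wide regions overlapped 3 of 29 Polycomb genes and 1 of 33 BAF, PBAF and GBAF subunit genes. The 5 regions of the BCOR locus on the X chromosome (54.9 kb) had GLTSCR1 cover of 87.3%, 87.3%, 78.8% and 75.4% and fusion cover of 75.2%, 56.6%, 34.9% and 55.1%. ARID1A (5.94 kb, fold 16.6) had 86.7%, 64.7%, 53.4% and 44.0% for GLTSCR1, lower at each later time, and 42.9%, 36.7%, 13.9% and 24.0% for the fusion. None of the 44 collagen genes, 86 ribosomal protein genes, 53 clustered protocadherin genes, 26 FGF genes or 29 BMP, GDF and antagonist genes overlapped a wide region, which at a share of 0.858% over all genes sets none of these families apart. Of WNT and FZD genes 3 of 29 did (WNT5A, FZD8 and FZD10), of KLF, EGR and AP-1 genes 1 of 30 (KLF12), and of ZNF genes 4 of 509 (ZNF608, ZNF423, ZNF503 and ZNF516).

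Wide regions lay both at and away from protein-coding genes. In 94 (41.4%) an end of a protein-coding gene span fell inside the region, against 14.9% of the other regions, which are narrower and so hold fewer ends by size alone. Another 62 overlapped a gene span without reaching an end, and 71 lay outside such spans, at a median of 79.7 kb and up to 838 kb from the nearest. Shares of the other regions are not given for these 2 classes, so the counts do not set wide regions apart. Of the 3469 summits 471 (13.6%) were within 1 kb of a gene end, and no such share is given for summits of the other regions. GLTSCR1 regions covered 84.1%, 77.1%, 76.0% and 76.2% of these 471 at 12, 24, 48 and 96 h, against 76.1%, 78.5%, 75.4% and 72.0% of the other 2998. The 2 sets were close at 24 and 48 h and farther apart at 12 h. Regions with a gene end were covered by GLTSCR1 in 77.7%, 73.4%, 74.5% and 79.8% of 94 cases, and those without in 78.9%, 80.5%, 78.2% and 72.9% of 133.

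The largest gene-free locus was on chromosome 8 from 77950729 to 78251448, where 7 regions with 120 kb lay 265 to 556 kb from PKIA, the nearest protein-coding gene. GLTSCR1 covered 95.1%, 98.4%, 94.8% and 92.1% of them and the fusion 32.3%, 19.2%, 9.29% and 12.1%. Also on chromosome 8, 7 regions within TRPS1, a gene for a GATA-type transcriptional repressor, had 87.5%, 92.7%, 87.6% and 71.1% for GLTSCR1 and 53.1%, 45.3%, 17.3% and 28% for the fusion. Another locus there, 5 regions from 128860269 to 128989252, had GLTSCR1 cover of 62.7%, 78.2%, 54.8% and 42.5% and fusion cover of 6.96% in DMSO, 0.728% at 12 h and none later. It included 2 of the 5 regions with the lowest later GLTSCR1 cover, in both of which no later fusion region was called. On chromosome 21, 8 regions lay in MIR99AHG, the host gene of miR-99a, let-7c and miR-125b-2, none of whose hairpins was among the 8 found in wide regions. GLTSCR1 covered 89.5%, 94.5%, 88.8% and 68.9% of these bases and the fusion 48.3%, 35.2%, 13.3% and 28.1%.

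Chromosomes 8 and 21 were also the ones with the highest shares of wide regions. On chromosome 8, 34 of 902 regions (3.77%) were wide, and on chromosome 21, 11 of 311 (3.54%), against 1.26% over all chromosomes. On chromosome 11 it was 1 of 725 (0.138%). No input signal or copy number was analysed here, and its part in these shares was not tested.

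Fusion was lowest in 13 regions with under 5% DMSO fusion cover, 9 of which had none. They were 3 regions on chromosome 7 at 153 kb and more from SEMA3A, 4 beyond DCN, 2 in MIR99AHG, 2 on chromosome 8, 1 within DNM3 and 1 at ZMYND8. The 3 near SEMA3A had no fusion cover in any list, and GLTSCR1 covered 83.7%, 98.2%, 87.0% and 82.8% of their bases. Their strongest folds, 6.86 to 8.69, were below the median of wide regions. At the other end, the 5 regions with the highest mean later GLTSCR1 cover were those over KERA and DNM3OS, a 13.2 kb region in DNM3, and 2 in the gene-free locus of chromosome 8 near PKIA. The 5 with the lowest were at HLX, ADGRL3 and NKX2-3 and the 2 named on chromosome 8.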

How the data were processed

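Chromatin from HS-SY-II cells was crosslinked with formaldehyde, sonicated, precipitated and sequenced as paired ends, per the labels' protocols. Per the submitters' processing notes, MACS2, BWA, Picard, SAMtools, deepTools, bcl2fastq, cutadapt, Trim Galore and FastQC were used with the build GRCh38 (hg38). The version and setting of each tool were not given in the sources used here. The authors deposited 1 peak list per library, with a summit position, a fold enrichment (a linear ratio over local background) and −log10 p and q values for each summit. Peak lists hold no read counts, so depth is unknown.

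Rows with the same coordinates, which are the summits of 1 region, were collapsed into 1 region. Regions of the DMSO GLTSCR1 list on chromosomes 1 to 22, X and Y wider than 5000 bp were kept, and the percent of their bases under each of the other 8 lists was computed. A region with 50% or more was called covered. Gene spans (20037 protein-coding genes), promoters and microRNAs were taken from RefSeq tables for GRCh38.p14. The span table gives no exons, so exonic and intronic positions were not assigned, and the promoter table holds 15843 of these genes.

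The regions named in full were the 10 widest, the 6 with the highest fold, the 5 with the highest and 5 with the lowest mean later GLTSCR1 cover, those with under 5% DMSO fusion cover (at most 8), those over HOX, ZIC or histone genes, and 3 on each side of the width limit, with up to 4 genes of each of 22 families. A few of these are not reported here. Other loci and genes named were picked after their values were seen. The members and lists were chosen with earlier results of these data known. Python 3.11.15, numpy 2.4.6, pandas 2.3.3, scipy 1.17.1 and matplotlib 3.10.9 were used. The overlap code was tested on 2000 simulated regions. Alternatives were other width limits, cover limits, merging, q limits, contigs, equal list lengths, summits in place of bases, leaving out a list, and 2 chosen after seeing the data.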

Additional observations from a re-analysis of the deposited data

How the results depend on the processing

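No paired analysis was possible because each group was 1 library. Of 101 alternative values, 53 moved beyond the limit set for them, which was the counting interval for a share and 1.5 times for a number of regions, and 48 did not. The later GLTSCR1 lists are given in the order 12, 24, 48 and 96 h and the fusion lists in the order DMSO, 12, 24 and 48 h. With a limit of 3000 bp there were 645 regions, of which GLTSCR1 covered 63.9%, 64.7%, 60.8% and 62.9%, and the fusion 71.5% in DMSO, 52.7% at 24 h and 58.1% at 48 h. With a limit of 10000 bp there were 49, with 98.0%, 95.9%, 93.9% and 93.9% for GLTSCR1 and 42.9%, 36.7%, 20.4% and 26.5% for the fusion. Merging DMSO regions within 500 bp gave 340, with 60.6%, 62.1%, 57.6% and 60.9% for GLTSCR1 and 71.5%, 64.1%, 55.3% and 60.3% for the fusion. When 25% of the bases sufficed, the shares were 96.9%, 95.2%, 96.5% and 95.2% for GLTSCR1 and 78.9%, 66.1%, 55.5% and 63.4% for the fusion, with 88.5% covered by all 4 later GLTSCR1 lists and 54.6% by all 4 fusion lists. When 75% was required, they were 48.9%, 48.5%, 46.3% and 39.6% for GLTSCR1 and 49.3%, 39.2%, 30.8% and 35.2% for the fusion, with 27.8% in all 4 later GLTSCR1 lists and 28.2% in all 4 fusion lists. Taking only the widest region of each of 131 loci, an alternative chosen after seeing the data, gave 71.0%, 71.0%, 70.2% and 69.5% for GLTSCR1 and 74.0%, 65.6%, 54.96% and 59.5% for the fusion. The cause of these shifts was not tested. Leaving out the 16 histone regions was also chosen after seeing the data and moved no share beyond its interval. Every later GLTSCR1 share was above every fusion share in 7 of 11 settings, and the DMSO fusion share was the highest fusion share in all 11. In each setting the regions were chosen from the DMSO GLTSCR1 list, so GLTSCR1 shares above fusion shares follow in part from the choice.

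With 1 library per group, no change with WA-68 could be separated from differences between libraries in depth or enrichment. A region missing from a list is below that list's calling threshold. Intervals treat neighbouring regions as independent, although 132 of the 227 lie in loci with several. Time in culture cannot be told apart from time with WA-68.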
